A study of Homo sapiens with 6 samples.

Results

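The 6 genes described here are CDK1 and CCNA2, which act at entry into mitosis, NDC80, SKA1 and CENPH, whose products belong to the kinetochore, and TTK, a kinase of the spindle checkpoint. They were taken by gene name from the authors' deposited table, where they are 6 of 453 listed features. That table holds only features with an unadjusted p under 0.05 between GDF15-treated and untreated cells, so the 6 were chosen through the very contrast described below, and their difference between the groups is given as a description, which no p of that contrast supports. The cells were LX2, an established human hepatic stellate cell line grown from the liver cell type that lays down matrix in fibrosis. There were 3 poly(A) RNA libraries of LX2 cells treated for 24 h with 1 ug/ml of recombinant GDF15 and 3 libraries of untreated LX2 cells. GDF15 is a secreted cytokine of the TGF-beta superfamily. No genotype or other agent is named for either group. All libraries come from a single cell line, and nothing in the labels ties the replicates to separate cultures, so the spread between them may be technical. The cell type label reads epithelial and the design text speaks of stellate cells. None of the 49 marker genes of stellate cells, hepatocytes, endothelial cells, macrophages, epithelial cells and lymphocytes had a row in the table, so the cell identity was not checked here.

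Entry into mitosis is driven by the kinase CDK1 bound to a cyclin, with cyclin A2, the product of CCNA2, acting from S phase to early mitosis. The kinetochore then forms on each centromere. CENPH is a subunit of its inner, centromere-bound part, NDC80 is the subunit whose name the microtubule-binding complex of the outer part carries, and SKA1 is part of a complex that strengthens the hold on the microtubule. TTK, also called MPS1, phosphorylates kinetochore proteins and delays anaphase until chromosomes are attached. Transcripts of such genes accumulate in cycling cells late in the cell cycle and are low in resting cells, and many of their promoters carry a cell cycle genes homology region, or CHR, often with CCAAT boxes upstream of it. Stellate cells at rest in the liver seldom divide, whereas LX2 cells divide in culture.

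Promoter stretches are shown because the 6 genes stood lower together and such motifs are known from genes of this class. Of the 6, 4 had windows in the RefSeq promoter table (build GRCh38.p14), which cover 250 bases before to 50 bases after a start site. CENPH and TTK had none. Each stretch below is 30 bases, written 5′ to 3′ on the gene's strand, and capitals mark matches to CHR (TTTGAA or TTCGAA) or CCAAT on either strand. The first CDK1 stretch is chr10:60778395-60778424 and the second chr10:60778448-60778477, both on the plus strand and upstream of the more downstream of its 2 start sites in the table. The CCNA2 stretch is chr4:121823923-121823952 on the minus strand, the NDC80 stretch chr18:2571545-2571574 on the plus strand, and the SKA1 stretch chr18:50375066-50375095 on the plus strand.
CDK1, first stretch: ctctgATTGGctgcTTTGAAagtctacggg
CDK1, second stretch: ccctttagcgcggtgagTTTGAAactgctc
CCNA2: cgcgagcgctttcATTGGtccatttcaata
NDC80: gcggagaatTTCAAATTCGAAcggctttgg
SKA1: ggcgcggcgggcggTTTGAAttttgcttac

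A CHR match was found in 3 of the 4 genes with a window, and in 1 of the 4, CDK1, when only the bases before the start were searched. CDK1 had matches that began 69 and 13 bases before its downstream start site and 1 on the opposite strand after it. NDC80 had an antisense TTTGAA across the start site and a TTCGAA directly after it, which reads the same on both strands, and SKA1 had a match that began at base 35 of the transcript. The CCNA2 window held no CHR match in these letters but an antisense CCAAT that began 56 bases before the start, and CDK1 held 2 antisense CCAAT matches before its downstream start. The E2F cores TTTCCCGC and TTTGGCGC were found in 0 of the 4 genes. The table's shares are per window, and a gene such as CDK1 can have more than 1. Among all 35116 windows, 16.4% held a CHR match, or 14.3% before the start, 34.6% a CCAAT match and 2.27% an E2F match. CHR matches stood in 18.6% of the 172 windows of listed lower features and in 6.30% of the 270 windows of listed higher features. The lower share is near that of all windows. CHR letters are poor in G and C, whose median share in transcripts was 42.3% for listed lower and 57.1% for listed higher features. The part of base composition in the CHR shares was not tested. All matches here are of letters, and binding was not measured.

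**Figure D1:**
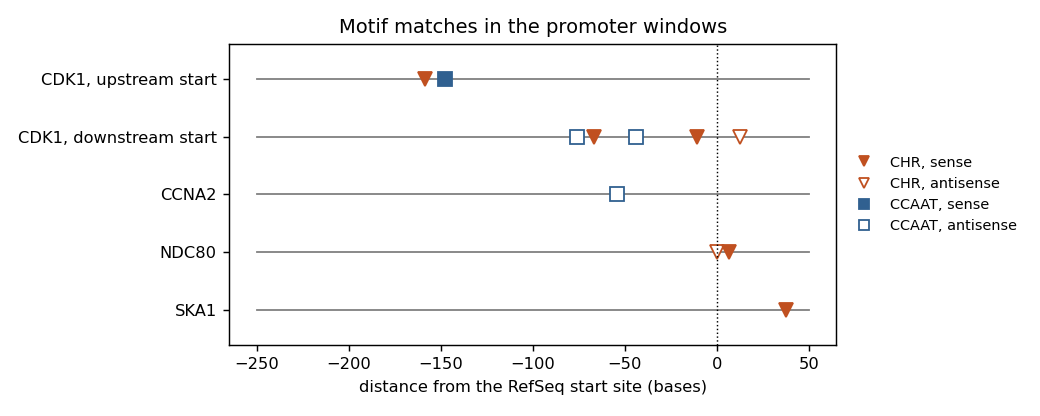
Positions of CHR and CCAAT matches in the promoter windows of CDK1 (2 start sites), CCNA2, NDC80 and SKA1, with the distance from the RefSeq start site in bases on the horizontal axis. Filled symbols are matches on the gene's strand and open symbols on the other strand; the matches of NDC80 lie at the start site, that of SKA1 after it, and those of CCNA2 before it.

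All 6 genes had lower normalized counts in every GDF15 library than in any untreated library. These values look like counts divided by a scaling factor per library, but whole reads were not recovered from them. The median log2 ratio of means, GDF15 over untreated, was -0.42, which is 0.748-fold, and it ran from -0.30 for CCNA2 to -0.61 for CENPH. No overlap between groups in the lower direction was found for 6 of 6 members and for 30.5% of all listed features, or 77.1% of the 179 listed lower features. As the table was selected on this contrast, nothing is read from the count. In the authors' deposited table the 6 genes had unadjusted p from 0.0176 for SKA1 to 0.0442 for NDC80, where 100% of the features had a p under 0.05 and the largest was 0.04996. Features with a larger p were not analysed here. After adjustment, the authors' deposited table gives each of the 6 a p of 0.911. In bulk RNA, fewer cells late in the cell cycle and less of these transcripts per cell cannot be told apart.

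A single untreated library stood apart for these genes. Untreated replicate 2 was the top library for all 6, as it was for 154 of the 179 listed lower features, and it was the lowest for 185 of the 274 listed higher features. For 180 of the 274 higher features the top value was that of GDF15 replicate 1. When untreated replicate 2 was left out, the 6 genes had a median log2 ratio of -0.20, or 0.868-fold, with a range from -0.18 to -0.26. Without GDF15 replicate 1 it was -0.42, and without both libraries -0.20. All 6 genes stayed lower in each case, a direction that groups without overlap fix beforehand.

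CDK1, the kinase that drives entry into mitosis, had the highest single value of the 6 genes. CDK1 (ENSG00000170312, GRCh38 chromosome 10, 60778331 to 60794852, plus strand) had 2569, 2311 and 2607 normalized counts in GDF15 replicates 1, 2 and 3, against 2817, 5222 and 2866 in untreated replicates 1, 2 and 3. The 3 GDF15 libraries lay close together, and untreated replicate 2 was 1.84 times the mean of the other untreated libraries. The means were 2495 ± 161 with GDF15 and 3635 ± 1375 untreated (SD, n = 3 each), a log2 ratio of -0.54. Between the highest GDF15 and the lowest untreated library the gap was 210.2 normalized counts, or 8.06% of the GDF15 value. Without untreated replicate 2 the log2 ratio was -0.19.

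CCNA2 had the smallest difference of the 6 with all libraries, whereas without untreated replicate 2 NDC80 and CDK1 had smaller ones. CCNA2 (ENSG00000145386, chromosome 4, 121816444 to 121823933, minus strand) had 2822, 2756 and 2887 normalized counts in GDF15 replicates 1, 2 and 3, against 3114, 3960 and 3353 in untreated replicates 1, 2 and 3. Untreated replicate 2 was highest here too, at 1.22 times the mean of the other untreated libraries. The means were 2822 ± 65.7 with GDF15 and 3475 ± 436 untreated (SD, n = 3 each), with a log2 ratio of -0.30, or -0.20 without untreated replicate 2. In GENCODE release 29 the exons of CCNA2 share 254 bases with those of EXOSC9 on the opposite strand, and as strand use in counting is not given in the sources used here, reads there cannot be assigned to either gene. The exons of the other 5 genes overlapped no other gene.

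Among the kinetochore genes, CENPH had the largest difference and SKA1 the smallest with all libraries, whereas without untreated replicate 2 SKA1 had the largest and NDC80 the smallest. CENPH (ENSG00000153044, chromosome 5, 69189548 to 69210357, plus strand) had 1081, 1125 and 1088 normalized counts in GDF15 replicates 1, 2 and 3, against 1217, 2474 and 1326 in untreated replicates 1, 2 and 3. Its GDF15 libraries had a coefficient of variation of 2.12%, the lowest of the 6 genes, and its untreated libraries 41.6%, the highest. CENPH averaged 1098 ± 23.3 with GDF15 and 1673 ± 696 untreated (SD, n = 3 each), with a log2 ratio of -0.61, or -0.21 without untreated replicate 2.

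NDC80 (ENSG00000080986, chromosome 18, 2571511 to 2616635, plus strand) had 2355, 2428 and 2497 normalized counts in GDF15 replicates 1, 2 and 3, against 2631, 4359 and 2858 in untreated replicates 1, 2 and 3. Untreated replicates 1 and 3 lay much nearer to the GDF15 libraries than to untreated replicate 2. The NDC80 means were 2427 ± 70.9 with GDF15 and 3283 ± 939 untreated (SD, n = 3 each), a log2 ratio of -0.44, or -0.18 without untreated replicate 2.

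SKA1 (ENSG00000154839, chromosome 18, 50374995 to 50394173, plus strand) had 1113, 1073 and 1024 normalized counts in GDF15 replicates 1, 2 and 3, against 1228, 1674 and 1342 in untreated replicates 1, 2 and 3. Its groups were 114.5 normalized counts apart at their nearest, 10.3% of the highest GDF15 value and the widest gap of the 6 in these relative terms. SKA1 averaged 1070.1 ± 44.5 with GDF15 and 1415 ± 232 untreated (SD, n = 3 each). Its log2 ratio was -0.40, or -0.26 when untreated replicate 2 was left out, which was the largest in size of the 6 genes in that setting.

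TTK, the checkpoint kinase gene, was the only one of the 6 whose second highest untreated library was replicate 1. TTK (ENSG00000112742, chromosome 6, 80003887 to 80042527, plus strand) had 1862, 1689 and 1834 normalized counts in GDF15 replicates 1, 2 and 3, against 2273, 2581 and 1924 in untreated replicates 1, 2 and 3. Untreated replicate 3 lay 62.1 normalized counts above the highest GDF15 library, 3.33% of its value and the narrowest gap of the 6. TTK averaged 1795 ± 93.2 with GDF15 and 2259 ± 329 untreated (SD, n = 3 each), with a log2 ratio of -0.33, or -0.23 without untreated replicate 2.

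**Figure D2:**
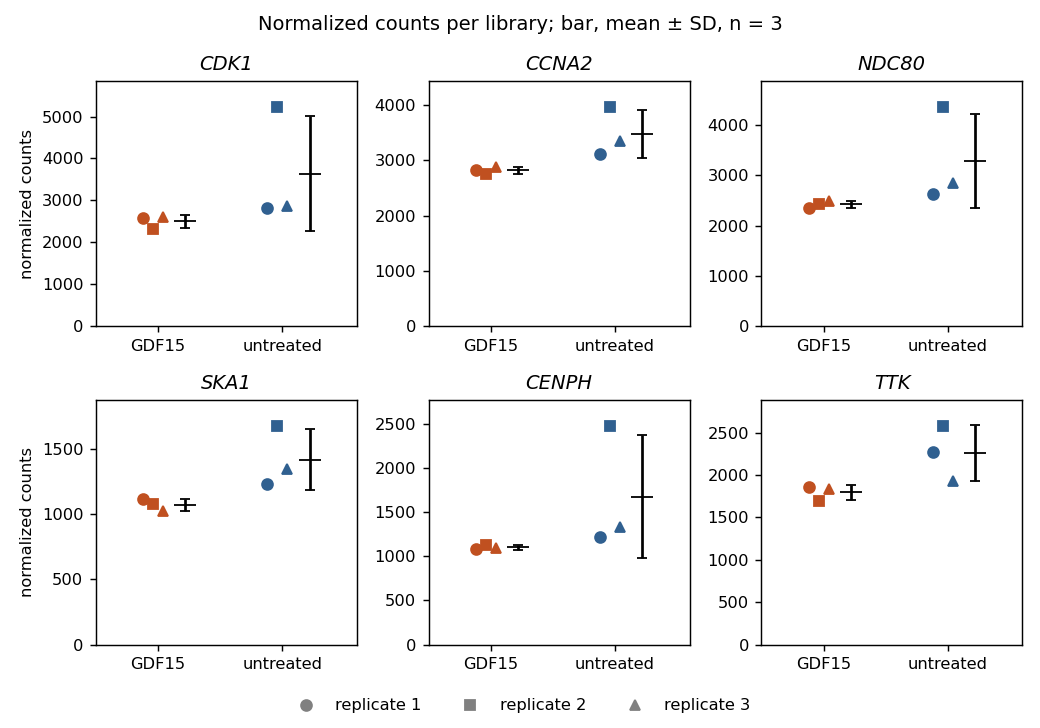
Normalized counts of the 6 genes in each library, with GDF15 libraries in orange on the left and untreated libraries in blue on the right of each panel; symbols are replicates and black bars are mean ± SD over 3 libraries. For CDK1 the GDF15 libraries sit between 2311 and 2607 and untreated replicate 2 at 5222, well above the other untreated libraries.

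The 6 genes varied together through untreated replicate 2 and showed no shared order among the GDF15 libraries. In GDF15-treated cells 5 different orders occurred among the 6 genes, and the highest and the lowest GDF15 library differed by 1.04-fold for CENPH up to 1.13-fold for CDK1. In untreated cells 5 of the 6 had the order replicate 2, 3, 1 from high to low, TTK being the exception. On a log2 scale relative to each gene's mean over 6 libraries, GDF15 replicates 1, 2 and 3 had medians over the 6 genes of -0.17, -0.21 and -0.17. By this measure untreated replicates 1 and 3 had medians of -0.03 and 0.02, and untreated replicate 2 stood between 0.34 for CCNA2 and 0.91 for CENPH. No correlation across the 6 libraries is given, since they fall into groups that do not overlap for these genes.

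Ratios between the genes within a library show which of them moved by the same amount. The CENPH to CDK1 ratio varied 1.17-fold from its lowest to its highest library, and this range did not depend on untreated replicate 2. The CCNA2 to CDK1 ratio varied 1.57-fold over all 6 libraries and 1.09-fold without untreated replicate 2. For TTK to CDK1 these ranges were 1.63-fold and 1.20-fold, for SKA1 to CDK1 1.46-fold and 1.19-fold, and for NDC80 to CDK1 1.26-fold and 1.15-fold. CDK1 and CENPH stood out most in untreated replicate 2, at 1.84 and 1.95 times the other untreated libraries, NDC80 less at 1.59 times, and SKA1, TTK and CCNA2 least at 1.30, 1.23 and 1.22 times.

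**Figure D3:**
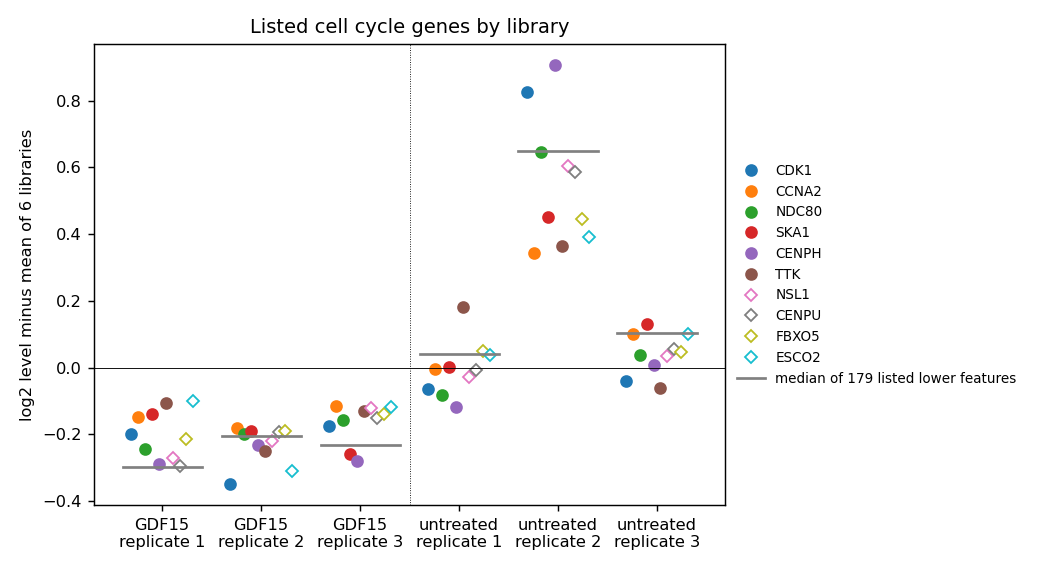
Log2 level of each listed cell cycle gene minus its mean over the 6 libraries, with libraries along the horizontal axis; filled circles are CDK1, CCNA2, NDC80, SKA1, CENPH and TTK, open diamonds the 4 other listed cell cycle genes, and grey lines the median of the 179 listed lower features. Untreated replicate 2 is highest for all 10 genes, and the GDF15 libraries are all below 0.

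Levels were compared between genes per kilobase of exon. With GDF15, CCNA2 had 1008 ± 23.5 normalized counts per kilobase, NDC80 674 ± 19.7, CDK1 635 ± 40.9, CENPH 489 ± 10.4, TTK 392 ± 20.3 and SKA1 363 ± 15.1 (SD, n = 3). The NDC80 and CDK1 levels differed by less than the SD of CDK1. In untreated cells CCNA2 had 1242 ± 156, CDK1 925 ± 350, NDC80 912 ± 261, CENPH 745 ± 310, TTK 493 ± 71.8 and SKA1 480 ± 78.7 per kilobase. Each pair of neighbours in this untreated order differed by less than the larger of their SDs. The genes share their libraries, however, and these SDs hold the shared rise of untreated replicate 2. They therefore do not show whether the order held within each library. Exon lengths are unions over all annotated transcripts, so a gene that uses a short form is understated on this scale.

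Of 203 genes in 8 cell cycle lists, 10 were listed, 0 higher and 10 lower, and 4 of the 10 were not among the 6. By list, 2 of 21 mitotic entry genes, 5 of 33 kinetochore and centromere genes, 1 of 19 checkpoint and passenger complex genes, 1 of 30 spindle, anaphase and cytokinesis genes and 1 of 21 condensation and cohesion genes had a row. None of 40 DNA replication genes, 22 regulators of G1 and S entry and 17 cell cycle inhibitors had one. These lists do not hold every cell cycle gene of the table, and some listed genes with such roles lie outside them. The remaining list genes, among them the proliferation marker genes MKI67 and TOP2A and the cyclin gene CCNB1, were not analysed here. In the table as a whole 39.5% of features were lower, but 6 of the 10 are the genes described here, known beforehand to be lower. The transcripts of the 10 genes also had a G and C (GC) content of 37.0% to 43.4%. Among listed features, 87.7% of those under 40% GC were lower, and 71.1% of those from 40% to 45%. Nothing is therefore read from the direction of the 10.

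The 4 further genes followed the same pattern. NSL1 encodes a subunit of the MIS12 complex of the kinetochore, and had 569, 589 and 631 normalized counts in GDF15 replicates 1, 2 and 3, against 673, 1042 and 702 in untreated replicates 1, 2 and 3. CENPU, which like CENPH encodes an inner kinetochore subunit, had 613, 658 and 677 with GDF15, against 749, 1129 and 781 untreated. Both were lower in every GDF15 library, with log2 ratios of -0.43 and -0.45 and of -0.21 and -0.24 without untreated replicate 2.

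FBXO5 encodes EMI1, an inhibitor of the anaphase-promoting complex, and had 1230, 1250.4 and 1293 normalized counts in GDF15 replicates 1, 2 and 3, against 1475, 1940 and 1471 in untreated replicates 1, 2 and 3. ESCO2, an acetyltransferase gene needed for sister chromatid cohesion, had 977, 844 and 964 with GDF15, against 1074, 1372 and 1123 untreated. Their log2 ratios were -0.37 and -0.36, or -0.23 and -0.24 without untreated replicate 2. Groups did not overlap for any of the 4 genes, and untreated replicate 2 was highest for each. Of the 179 listed lower features, 77.1% had no overlap and 86% had untreated replicate 2 highest, so nothing is read from these counts.

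The profiles most like the mean profile of the 6 genes were those of DCK, NSL1, HMGB3, CENPU and AASDHPPT. Likeness was the root mean square difference of log2 profiles over the 6 libraries, 0.043 for DCK, 0.044 for NSL1, 0.048 for HMGB3, 0.050 for CENPU and 0.059 for AASDHPPT. By the same measure the 6 genes themselves ran from 0.046 for NDC80 to 0.147 for CENPH. DCK and NSL1 thus lay nearer to the mean profile than any of the 6. The median over the 179 listed lower features was 0.189. DCK, the deoxycytidine kinase gene of the nucleoside salvage pathway, had 820.3, 788 and 784 normalized counts in GDF15 replicates 1, 2 and 3, against 954, 1474 and 968 in untreated replicates 1, 2 and 3. HMGB3, a gene of a high-mobility-group chromatin protein, had 1730 to 1845 with GDF15 and 2077 to 3005 untreated. AASDHPPT, a gene of an enzyme that attaches phosphopantetheine, had 685 to 757 with GDF15 and 822 to 1229 untreated. Untreated replicate 2 was highest for all 5, which a choice by nearness to a profile that peaks in that library largely fixes beforehand. It was also highest for 154 of the 179 listed lower features.

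Without untreated replicate 2, the 6 genes had log2 ratios much closer to each other than with it. With all libraries the ratios of CDK1 and CENPH were -0.54 and -0.61 and those of CCNA2 and TTK -0.30 and -0.33. Without that library CDK1 and CENPH had -0.19 and -0.21, and CCNA2 and TTK -0.20 and -0.23. Over all 179 listed lower features the median log2 ratio was -0.59 with all libraries and -0.34 without it. Limma, a moderated linear model fitted to log2(normalized count + 1) across all listed features, gave 0 of the 6 genes an unadjusted p under 0.05, with p from 0.0836 for SKA1 to 0.162 for CCNA2, and gave 13% of the listed features such a p in the lower direction. These p are of the contrast that chose the genes and serve as description, as do those of the authors' deposited table.

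**Figure D4:**
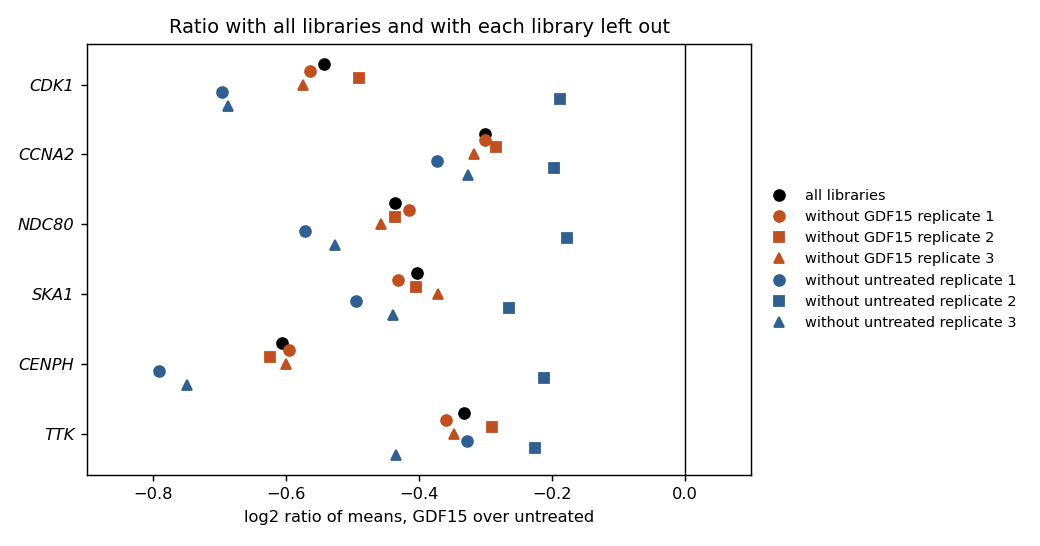
Log2 ratio of means, GDF15 over untreated, for each of the 6 genes with all libraries (black) and with a single library left out (orange, a GDF15 library; blue, an untreated library). Leaving out untreated replicate 2 gives the value nearest 0 for every gene, between -0.26 for SKA1 and -0.18 for NDC80.

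The transcripts of the 6 genes were poor in G and C, and GC content moved with direction across the table. GC content ran from 37.0% for CDK1 to 43.4% for SKA1, with 42.1% for CCNA2, 40.1% for NDC80, 42.5% for CENPH and 40.8% for TTK. The median was 42.3% for listed lower features and 57.1% for listed higher features. Of 65 features under 40% GC, 87.7% were lower, and of 178 features at 55% or more, 9.55% were. The median log2 ratio of untreated replicate 2 to the mean of the other untreated libraries was 0.56 under 40% GC, 0.43 from 40% to 45%, 0.09 from 45% to 50%, -0.24 from 50% to 55% and -0.38 above that. That library was highest for 86% of the listed lower features and lowest for 67.5% of the listed higher ones. Its gradient and that of the lower share are thus not separate observations. The part of GC content in the values of the 6 genes was not tested. ERCC-00157, a spike-in RNA that does not come from the cells, was also listed as lower: it had 19.65, 17.98 and 13.30 normalized counts in GDF15 replicates 1, 2 and 3, against 29.03, 38.85 and 26.92 in untreated replicates 1, 2 and 3. Its log2 ratio was -0.90, larger in size than that of any of the 6 genes, and -0.72 without untreated replicate 2. Whether scaling moved the 6 genes in the same way was not tested, as this was the only spike-in listed and was selected by the same p.

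**Figure D5:**
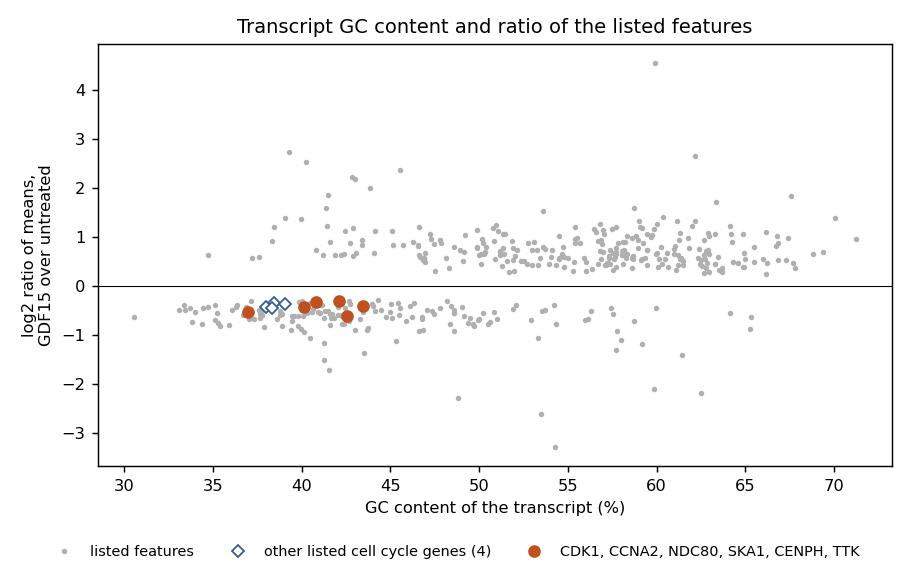
GC content of the transcript in percent against the log2 ratio of means, GDF15 over untreated, for the listed features with a transcript sequence; orange circles are the 6 genes and open blue diamonds the 4 other listed cell cycle genes. The 10 genes lie between 37.0% and 43.4% GC and below 0, where most features of low GC content lie.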

How the data were processed

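NEBNext Ultra II libraries of poly(A) RNA were made after ERCC spike-ins were mixed in, per the labels' protocols. DESeq2, featureCounts, Subread 1.5.2, STAR 2.5.2b and Trimmomatic 0.36 with build GRCh38 are named per the submitters' processing notes. Annotation, settings and strand use: not given in the sources used here. The authors deposited 1 table of 453 features, each with an unadjusted p under 0.05. Its 6 columns of deposited signal per library were normalized by the authors and are called normalized counts here; the log2 column holds the authors' fold change, GDF15 over untreated, and its p-value columns are the authors' p and adjusted p. Full depth is unknown, so counting intervals are left out.

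Column names matched the library names of all 6 samples, and 0 columns were left unmapped. Means, SDs and log2 ratios of means were computed over 3 libraries per group. The largest difference of such a ratio to the authors' value was 0.031. Limma 3.58.1 in R 4.3.3 (pseudocount 1, mean-variance trend) was fitted across all listed features. It serves as background, since its features were selected on the same contrast. Its test on simulated data gave every library the same spread, taken from the GDF15 libraries. That test does not cover an untreated library that stands apart. An exact permutation test of 3 against 3 libraries cannot go below 0.10 and was not used. Positions, lengths and GC content (longest protein-coding transcript, where there was one) came from GENCODE release 29, which held 451 of the features.

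The members, gene lists and tests were chosen with earlier results of these data known. Genes named are the 6 members, listed genes of 8 cell cycle lists, and the 5 features with a mean of at least 20 normalized counts nearest in profile; other named genes were chosen after their values were seen. Alternatives were a minimum mean of 20, pseudocounts of 0.1 and 5, a replicate block, libraries left out, promoter windows without the bases after the start, and another scaling. All other steps used Python 3.11.15, numpy 2.4.6, pandas 2.3.3 and matplotlib 3.10.9.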

Additional observations from a re-analysis of the deposited data

How the results depend on the processing

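The 6 genes were lower with GDF15 under every alternative run. For the pseudocounts, the libraries left out and the replicate block, groups without overlap fix that direction beforehand. The median log2 ratio of the 6 genes was -0.42 with all libraries and -0.40 as the difference of mean log2(normalized count + 1). With a single library left out it was between -0.53 and -0.20, the last without untreated replicate 2. Rescaling each library by the median ratio of its listed features, an alternative chosen after seeing the data, gave -0.65 and moved the median of all listed features by -0.20. Its factors came from listed features alone, of which 274 were higher and 179 lower. That selection sets a downward shift, so the rescaling did not test the direction of the 6 genes. Limma called 170 listed features at an unadjusted p under 0.05, 59 of them lower. It called 87 to 199, and 20 to 71 lower, with a single library left out, and 110 without both GDF15 replicate 1 and untreated replicate 2. Of the 6 genes it called CENPH without untreated replicate 1 and SKA1 without both named libraries, and 0 in the other settings with libraries left out. With a replicate block it called 270 features and 0 of the 6 genes. The labels do not say what the replicate number marks, so the numbers were not taken as pairs. Deviations from the group means correlated across features at 0.114, 0.217 and -0.0485 for same-numbered libraries. GDF15 replicates 1 and 2 correlated best with their own number and GDF15 replicate 3 did not, which does not settle whether libraries were paired. The cause of these shifts was not tested. Counting only CHR matches upstream of the start left 1 of the 4 genes, CDK1, against 3, since fewer bases were searched. Count tests with edgeR, TMM factors or DESeq2 were not run, since whole reads were not recovered from the normalized values. The full depth is unknown, and 3 libraries per group limit the precision.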

Other observations

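Further listed genes act in the cell cycle or in DNA replication and repair without being in the 8 lists. Those given here were picked once their values were known, so their number and direction show nothing about such genes as a group. PBK, a mitotic kinase gene, averaged 1556 ± 29.9 normalized counts with GDF15 and 2287 ± 925 untreated (SD, n = 3 each), with a log2 ratio of -0.56, or -0.17 without untreated replicate 2. RPA3, the small subunit gene of the single-stranded DNA binding protein RPA, averaged 397 ± 40.2 with GDF15 and 654 ± 356 untreated, with a log2 ratio of -0.72, or -0.18 without that library. PCLAF, a gene of a PCNA-binding protein, averaged 422 ± 42.3 with GDF15 and 733 ± 452 untreated, and its log2 ratio was -0.80, or -0.16 without it. The groups of PCLAF overlapped, with 456 in GDF15 replicate 3 and 448 in untreated replicate 3. CENPS, a gene of a further kinetochore subunit, had a log2 ratio of -0.66, or -0.24 without untreated replicate 2, and DSCC1, a gene of a clamp loader that acts in sister chromatid cohesion, -0.66 or -0.44. RBBP8, which encodes the DNA end resection factor CtIP, had -0.30 or -0.20, DEPDC1 -0.43 or -0.25, SUV39H2, a histone methyltransferase gene, -0.39 or -0.23, and ANAPC10, a subunit gene of the anaphase-promoting complex, -0.53 or -0.24.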
